A study of Homo sapiens with 24 samples.

Results

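The genes described here are 10 genes of the oxidative stress response, namely the transcription factor gene NFE2L2 (which encodes NRF2), its textbook targets NQO1, HMOX1, GCLC, GCLM, SRXN1 and TXNRD1, and the antioxidant enzyme genes SOD2, SOD1 and CAT. They were listed by name, and the rows of a count table of 39321 genes were matched to them by Ensembl identifier. A row was found for 9 of the 10. SOD2 had no row under the identifier that the annotation used here gives it. A row under ENSG00000112096, its identifier in earlier annotation releases, is described apart and is in no count of the 9. All 9 had enough counts for a test in the A498-labelled libraries and 7 had in the 786-O-labelled libraries, where SRXN1 and SOD1 were at 0 in all 12 libraries and are taken as not measured.

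NRF2 is a transcription factor that the adaptor protein KEAP1 hands to a ubiquitin ligase for destruction, so that it is scarce in unstressed cells. Oxidants and electrophiles modify KEAP1, NRF2 then builds up, pairs with a small MAF protein and binds antioxidant response elements in front of genes for glutathione synthesis, thioredoxin reduction, quinone detoxification and heme breakdown, while BACH1 competes with it for the same elements. Superoxide dismutases and catalase remove superoxide and hydrogen peroxide, and NRF2 activity is raised in some renal cancers, papillary ones above all.

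The study sequenced polyadenylated RNA of A498 and 786-O, established lines of human clear cell renal cell carcinoma, in 24 libraries. Each line had 4 groups of 3 libraries. Cnsi cells received a non-targeting pool of small interfering RNA (siRNA), PD-L1si cells a pool against the immune checkpoint ligand PD-L1, each at 20 nM, and the Cnsi IFNγ and PD-L1si IFNγ groups were also given interferon gamma, a cytokine of T and NK cells, at 50 ng/mL for 24 h from 24 h after transfection. The labels speak of a knockout where the protocol gives an siRNA pool, and they do not say whether the 3 libraries of a group came from separate cultures, so the p-values measure the spread between libraries only. With a single pool for the target, effects of losing PD-L1 and other effects of these siRNAs cannot be told apart. The lines were sequenced on different instruments, so line and instrument cannot be told apart either. By the genes they show, the study's displays appear to attach the line names to the opposite sets of values, but none of those values is printed here. Its text names TNFAIP3 among genes that appear to need PD-L1 for their regulation by IFNγ in A498 cells. With PD-L1si under IFNγ, TNFAIP3 had a log2 fold change of -1.57 labelled A498 and -0.44 labelled 786-O. The larger fall of this gene thus lay under the line name that the text uses. With IFNγ in PD-L1si cells the values of TNFAIP3 were 2.39 and 1.88. Which assignment of the line names is right was not tested, so the lines are called here by their labels.

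Library totals ran from 19256316 to 30350461 counts. Levels are given as CPM, the count of a gene scaled to a common library size, with library sizes adjusted by TMM (trimmed mean of M values) within a line. Of the 7 markers of renal epithelium and carcinoma, 7 were over 1 CPM labelled A498 and 5 labelled 786-O, where CDH2 and PAX2 were at 0. Rows at 0 in all libraries labelled 786-O are taken as not measured there, so such zeros do not show that a gene was silent. Among the markers below, CD3D, CSF1R and VWF were at 0 there too. Markers of T and B cells, 4 of 6 with a row, summed to at most 0.380 CPM in any library. Macrophage and granulocyte markers summed to 5.44 to 12.99 CPM in the libraries labelled 786-O, mostly ITGAM at a mean of 7.92 CPM, and to at most 1.20 CPM in the others. Fibroblast markers summed to 1.76 to 13.8 CPM in the libraries labelled A498, mostly LUM at a mean of 4.37 CPM, and to at most 0.198 CPM in the others, where COL1A1, COL1A2 and DCN were at 0 and the sum rests on the other 2 of 5. Endothelial markers reached at most 1.61 CPM.

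The siRNA target itself followed the labels. CD274, which encodes PD-L1, measured 3.99, 5.49 and 5.74 CPM in Cnsi libraries labelled A498, 191, 199 and 191 with IFNγ, 0.810, 1.01 and 0.926 with PD-L1si, and 26.9, 28.5 and 27.7 with both. In the libraries labelled 786-O it measured 3.87, 4.18 and 4.18, then 55.7, 59.6 and 65.8 with IFNγ, 1.46, 1.21 and 1.90 with PD-L1si, and 32.7, 30.8 and 30.6 with both. No group overlapped another within a line, and under IFNγ more of the transcript was left with PD-L1si in the libraries labelled 786-O.

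**Figure D1:**
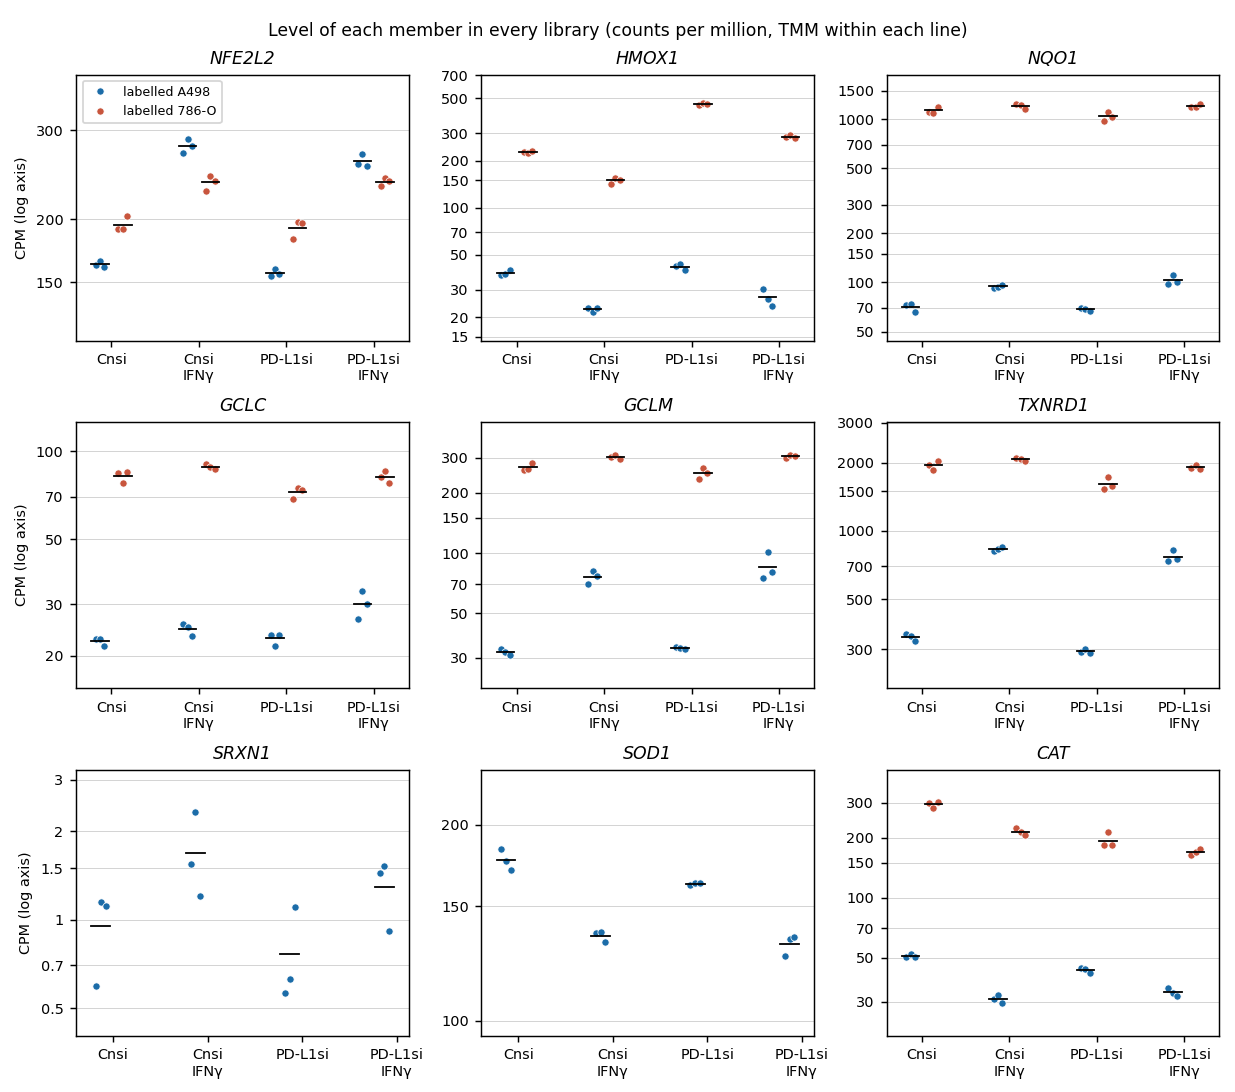
Level of each gene in every library, in CPM on a log axis, by group, with points for the 3 libraries of a group, bars for their mean and colors for the labelled lines (SRXN1 and SOD1 have no points for 786-O). TXNRD1 and GCLM step up with IFNγ in the libraries labelled A498 and differ less in the other line, where HMOX1 steps up with PD-L1si.

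The response to IFNγ asked which of these genes a cytokine of the antitumor response moves in tumor cells. In Cnsi cells labelled A498, the quasi-likelihood test of edgeR, with p-values adjusted by Benjamini-Hochberg, placed 4 of the 9 genes past the threshold upward (adjusted p under 0.05 and a log2 fold change over 0.5) and 2 downward, where 18.2% and 18.5% of all 20916 genes tested went the same ways. In PD-L1si cells of that line 5 of 9 rose, against 17.6% of all genes, and 1 fell, against 15.9%. In the libraries labelled 786-O, 0 of 7 rose and 1 fell in Cnsi cells, where 11.1% and 7.39% of 21209 genes did, and 0 rose and 1 fell in PD-L1si cells, against 11% and 7.45%. At an unadjusted p under 0.05 the counts there were 4 of 7 in Cnsi cells and 7 of 7 in PD-L1si cells, and DESeq2 placed 1 of 7 past the threshold in each. Here and below, counts at an unadjusted p or at the adjusted p alone have no share of all genes beside them. Such counts are descriptions and show no excess over all genes. The median log2 fold change in Cnsi cells was 0.42 over the 9 genes against -0.03 over all genes labelled A498, and 0.10 over the 7 against 0.00 for 786-O. The IFNγ response was thus split in direction in the line labelled A498. For 786-O HMOX1 alone passed, with CAT next in size but under the limit in Cnsi cells. In PD-L1si cells all 7 genes had an adjusted p under 0.05, 5 of them positive and 2 negative. The share of all genes at that adjusted p is not given, so this count is not read as particular to these genes.

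With PD-L1 siRNA 0 of the 9 genes with a row passed the threshold labelled A498, where the shares of all genes were low too. The row with the earlier identifier of SOD2, described below, fell there. Labelled 786-O, HMOX1 passed in both states and CAT without IFNγ. Under IFNγ, 0 of 9 passed in the libraries labelled A498 by edgeR, where 4.36% of all genes rose and 5.75% fell, with 5 of 9 at an unadjusted p under 0.05 and 0 by DESeq2. Without IFNγ 0 of 9 passed by edgeR, against 2.87% up and 5.6% down, with 4 of 9 at an unadjusted p under 0.05 and 0 by DESeq2. In the libraries labelled 786-O, 1 of 7 rose and 0 fell under IFNγ, against 1.29% and 1.74% of all genes, and without IFNγ 1 rose and 1 fell, against 1.19% and 1.63%, with 4 and 5 of 7 at an unadjusted p under 0.05 and 1 and 2 by DESeq2. The interaction, which asks whether the IFNγ response differs with PD-L1si, was past the threshold by edgeR for 0 of 9 genes in the libraries labelled A498, where 1.81% of all genes were positive and 0.645% negative, with 3 of 9 at an unadjusted p under 0.05 and 0 by DESeq2. For 786-O it was 0 of 7 by edgeR, against 0.0377% and 0.0613%, with 2 of 7 at an unadjusted p under 0.05 and 0 by DESeq2. The percentages in this paragraph belong to the threshold and not to the counts at an unadjusted p.

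**Figure D2:**
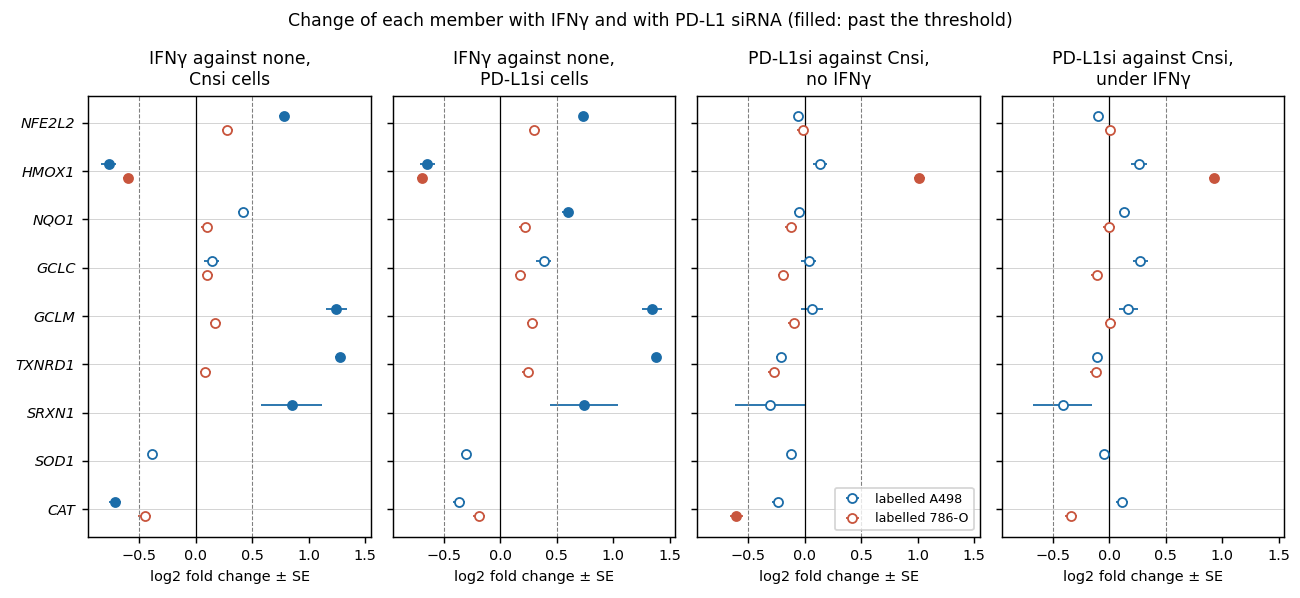
Log2 fold change of each gene with its standard error (SE) in 4 comparisons, colored by labelled line, with filled points past the threshold and dashed lines at a log2 fold change of 0.5 either way. IFNγ spread the genes labelled A498 from -0.77 for HMOX1 to 1.28 for TXNRD1 in Cnsi cells, and HMOX1 stands alone to the right for PD-L1si in the line labelled 786-O.

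The comparisons within a line share libraries (IFNγ in Cnsi cells and PD-L1si without IFNγ both use the Cnsi libraries), so their values stand side by side below and were not correlated.

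NFE2L2 (ENSG00000116044, GRCh38 chr2:177218667-177392756, minus strand) encodes NRF2 itself. Among libraries labelled A498 it measured 162.0, 165.2 and 160.9 CPM in Cnsi cells and 270.4, 288.3 and 278.7 with IFNγ, then 154.1, 159.1 and 155.7 with PD-L1si and 257.4, 268.8 and 255.3 with both. The IFNγ libraries all lay above the libraries without it, and the 4 groups did not overlap. The log2 fold change with IFNγ was a rise of 0.78 ± 0.0396 (SE, adjusted p 7.42e-19, quasi-likelihood test of edgeR with Benjamini-Hochberg), higher in 3 of 3 libraries, and a rise of 0.74 ± 0.0398 in PD-L1si cells (adjusted p 4.86e-18, 3 of 3). With PD-L1si under IFNγ its log2 fold change was -0.10 ± 0.0391 (adjusted p 0.0454), lower in 3 of 3 libraries and short of the 0.5 limit. Labelled 786-O, it measured 191.1, 190.8 and 202.7 CPM in Cnsi cells and 227.5, 243.9 and 237.8 with IFNγ, a log2 fold change of 0.28 ± 0.0466 (adjusted p 2.42e-05) that was positive in 3 of 3 libraries but under the limit. PD-L1si left NFE2L2 there between 182.96 and 197.8 CPM without IFNγ and between 232.9 and 240.9 with it, overlapping the Cnsi libraries in both states, and the 95% interval of its log2 fold change under IFNγ ran from -0.09 to 0.10. In the annotation used here, exons of NFE2L2 overlap those of AGPS and HNRNPA3 on the other strand. AGPS and HNRNPA3 held a mean of 2977 and 7167 counts in the libraries labelled A498 beside 5060.1 for NFE2L2. The level of NFE2L2 may therefore rest on the strand setting of the counting. The study counted with an earlier GENCODE release, and whether these exons overlap in it was not tested. The methods state a stranded kit and a stranded counting mode, and whether the pair reads the same strand was not tested.

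TXNRD1 (ENSG00000198431, chr12:104215779-104350307, plus strand) encodes the cytosolic thioredoxin reductase, a selenoprotein that uses NADPH to keep thioredoxin reduced. Its values labelled A498 were 353, 345 and 326 CPM in Cnsi cells and 812, 829 and 847 with IFNγ, next to 292, 303 and 291 for PD-L1si alone and 737, 824 and 749 for both. Every IFNγ library was more than 2-fold above every library without it. TXNRD1 rose by 1.28 ± 0.0429 in log2 fold change with IFNγ in Cnsi cells (adjusted p 2.80e-24, edgeR's test with Benjamini-Hochberg, higher in 3 of 3 libraries), a 2.43-fold rise and the largest absolute change among the 9 genes. In PD-L1si cells the rise was 1.38 ± 0.0431 (adjusted p 3.51e-25, 3 of 3). PD-L1si gave -0.21 ± 0.0428 without IFNγ (adjusted p 0.000181, lower in 3 of 3 libraries) and -0.11 ± 0.0419 with it (adjusted p 0.0459, with overlapping libraries), both under the limit. TXNRD1 started higher labelled 786-O, at 1957, 1863 and 2043 CPM in Cnsi cells and 2106, 2082 and 2033 with IFNγ, and the groups overlapped. Its log2 fold change there was 0.09 ± 0.0495 (adjusted p 0.184), and in PD-L1si cells 0.24 ± 0.0495 (adjusted p 0.000287, higher in 3 of 3 libraries), under the limit. PD-L1si libraries of that line were lower, at 1528, 1735 and 1578 CPM, without overlap with Cnsi, a log2 fold change of -0.28 ± 0.0495 (adjusted p 0.000302, lower in 3 of 3 libraries) that did not reach the limit, and with both treatments they measured 1895, 1954 and 1877.

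GCLM and GCLC encode the subunits of glutamate-cysteine ligase, which makes the rate-limiting step of glutathione synthesis, GCLC the catalytic subunit and GCLM the modifier that raises its activity. GCLM (ENSG00000023909, chr1:93885199-93909456, minus strand) measured 33.02, 32.2 and 30.9 CPM in Cnsi libraries labelled A498 and 70.1, 81.1 and 76.5 with IFNγ, with 33.8, 33.7 and 33.01 for PD-L1si and 74.9, 101.0 and 80.7 for both. The IFNγ libraries stood apart from the rest, and PD-L1si and Cnsi overlapped in both states. GCLM rose by 1.25 ± 0.0906 in log2 fold change with IFNγ in Cnsi cells (adjusted p 5.43e-09, 3 of 3 libraries higher, edgeR with Benjamini-Hochberg) and by 1.35 ± 0.0896 in PD-L1si cells (adjusted p 1.98e-09, 3 of 3). Labelled 786-O, GCLM measured 262, 263 and 281 CPM in Cnsi cells and 304, 309 and 295 with IFNγ, which is 0.17 ± 0.0485 (adjusted p 0.00542, higher in 3 of 3 libraries) and under the limit. PD-L1si and Cnsi overlapped there too, with 235 to 266 CPM for PD-L1si alone and 298 to 308 for both.

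GCLC (ENSG00000001084, chr6:53497341-53616970, minus strand) stayed nearer its control level. Its 12 values labelled A498 lay between 21.6 and 33.4 CPM, with the highest 3, 26.8, 33.4 and 30.1, in the cells given both treatments. IFNγ gave 0.14 ± 0.0681 in Cnsi cells (adjusted p 0.0706) and 0.38 ± 0.0668 in PD-L1si cells (adjusted p 5.91e-06, higher in 3 of 3 libraries), both short of the 0.5 limit, and PD-L1si under IFNγ gave 0.28 ± 0.0673 (adjusted p 0.00133, 3 of 3). Libraries labelled 786-O held it between 68.8 and 90.2 CPM. IFNγ gave 0.10 ± 0.0514 there (adjusted p 0.123) and PD-L1si without IFNγ -0.19 ± 0.0515 (adjusted p 0.0140, lower in 3 of 3 libraries). A gene on the same strand, ENSG00000231683, overlaps exons of GCLC and held a mean of 690.8 counts labelled 786-O against 0.0833 labelled A498.

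The balance of the subunit transcripts differed with IFNγ in the line labelled A498, a description with no test. As a ratio of CPM per kb of exon, GCLM over GCLC was 2.26 ± 0.0286 (SD, n = 3) in Cnsi cells, 4.89 ± 0.493 with IFNγ, 2.33 ± 0.132 with PD-L1si and 4.50 ± 0.276 with both, without overlap between the states. For the line labelled 786-O it was 5.17 ± 0.210, 5.43 ± 0.111, 5.49 ± 0.138 and 5.91 ± 0.280 in the same order. The ratio uses the exon length of each gene and not that of the transcripts expressed, which was not tested, so it gives no count of molecules, and the part of ENSG00000231683 in the values labelled 786-O was not tested either. With IFNγ the ratio labelled A498 lay nearer to the values labelled 786-O, but line and instrument cannot be told apart in that comparison.

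**Figure D3:**
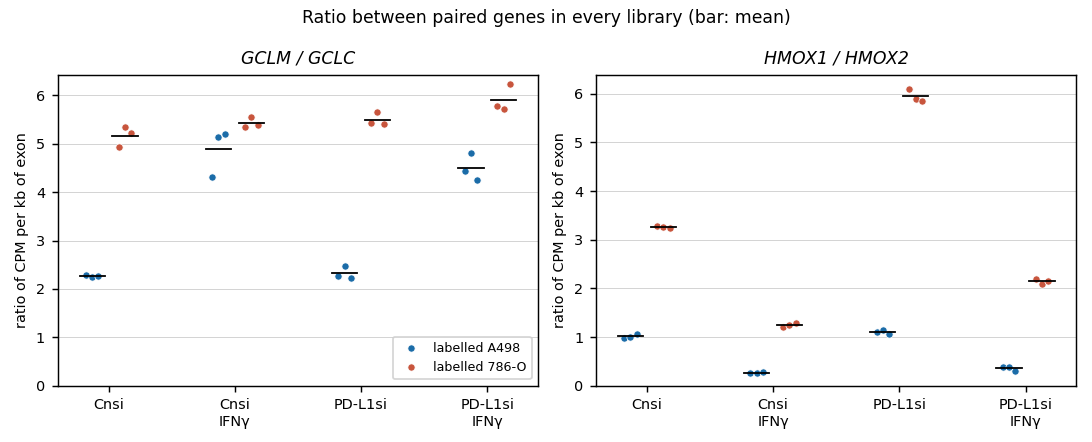
Ratio of CPM per kb of exon between GCLM and GCLC and between HMOX1 and HMOX2 in every library, by group and labelled line, with points for libraries and bars for means. The GCLM to GCLC ratio labelled A498 went from 2.26 to 4.89 with IFNγ, and the HMOX1 to HMOX2 ratio was lower with IFNγ in both lines.

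The 250 bases before the annotated starts of the genes were searched on both strands in RefSeq promoters of GRCh38.p14. These promoters matched 8 of the 10 genes with 13 windows (HMOX1 and SOD1 had no entry). The core of the antioxidant response element, TGACNNNGC, lay in 3 windows of 2 genes, GCLM and TXNRD1, and in 10.9% of all 35116 promoters. The gamma-activated sequence TTCNNNGAA lay in 1 window, that of GCLM, and in 6.57% of all promoters. GGNNTTTCC, part of the NF-kB site, lay in 0 of 13 windows and in 5.48% of all promoters. Each match is a description of letters and shows no binding. Bases further upstream were not searched, so a window without a match does not show that the gene lacks the element. The stretches are printed 5′ to 3′ on the strand of the gene with the matches in capitals, the antioxidant core first in the GCLM stretch and the gamma-activated sequence after it. They lie at chr1:93909431-93909489 for GCLM and at chr12:104215655-104215713 and chr12:104286905-104286963 for the pair of TXNRD1 starts.
GCLM: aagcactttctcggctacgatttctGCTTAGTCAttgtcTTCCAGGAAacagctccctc
TXNRD1 upstream start: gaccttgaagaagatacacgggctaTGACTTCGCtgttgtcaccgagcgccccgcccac
TXNRD1 downstream start: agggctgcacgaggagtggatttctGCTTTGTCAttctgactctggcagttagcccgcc
In GCLM the antioxidant core spans 34 to 26 bases before the start and the gamma-activated sequence 20 to 12. The starts here are those of RefSeq. For GCLM the RefSeq start lies inside the gene span given above, which is that of GENCODE, so the gamma-activated sequence falls within this span and the antioxidant core at its edge. In TXNRD1 the core spans 99 to 91 bases before the upstream start and 102 to 94 before the downstream start.

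SRXN1 (ENSG00000271303, chr20:646615-653200, minus strand) encodes sulfiredoxin, which repairs overoxidized peroxiredoxins, and held few counts. Labelled A498, it had 15, 29 and 28 counts in Cnsi cells and 37, 60 and 25 with IFNγ, and 16, 15 and 31 with PD-L1si against 33, 29 and 19 with both. The CPM values of IFNγ Cnsi libraries, 1.55, 2.33 and 1.20, lay just above those of Cnsi libraries, 0.598, 1.15 and 1.12, while the groups with PD-L1si overlapped. SRXN1 rose with IFNγ in Cnsi cells by 0.85 ± 0.267 (adjusted p 0.00657, higher in 3 of 3 libraries) and in PD-L1si cells by 0.74 ± 0.302 (adjusted p 0.0353, above all PD-L1si libraries in 2 of 3) by edgeR with Benjamini-Hochberg. Single libraries decided these calls. In Cnsi cells the value was 0.60 (adjusted p 0.0611) without Cnsi replicate 1 and 0.54 (adjusted p 0.117) without Cnsi IFNγ replicate 2. In PD-L1si cells it missed the threshold without PD-L1si replicate 1 (0.55, adjusted p 0.162) or replicate 2 (0.63, adjusted p 0.108), without PD-L1si IFNγ replicate 1 (0.64, adjusted p 0.127) or replicate 2 (0.62, adjusted p 0.108), and with DESeq2 (0.74, adjusted p 0.0604).

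NQO1 (ENSG00000181019, chr16:69706996-69726668, minus strand) encodes a quinone reductase and is a common marker of NRF2 activity. Its levels labelled A498 were 72.3, 73.4 and 66.3 CPM in Cnsi cells, 93.0, 93.5 and 97.2 with IFNγ, 69.5, 68.9 and 66.7 with PD-L1si, and 98.3, 111.5 and 101.0 with both. IFNγ libraries were higher than all others without overlap, by 0.42 ± 0.0487 in log2 fold change in Cnsi cells (adjusted p 2.09e-09, 3 of 3), which is under the limit. In PD-L1si cells NQO1 rose by 0.60 ± 0.0487 (adjusted p 4.34e-13, 3 of 3, edgeR with Benjamini-Hochberg). The difference between these values, the interaction, was 0.18 ± 0.0688 (adjusted p 0.107). NQO1 labelled 786-O lay between 971 and 1248 CPM in all 12 libraries, and Cnsi libraries overlapped each of the other groups, while PD-L1si libraries lay below both IFNγ groups. IFNγ gave 0.10 ± 0.0513 in Cnsi cells (adjusted p 0.147) and 0.22 ± 0.0513 in PD-L1si cells (adjusted p 0.00141, higher in 3 of 3 libraries), under the limit.

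HMOX1 (ENSG00000100292, chr22:35380361-35394214, plus strand) encodes the inducible heme oxygenase, which opens heme to biliverdin, iron and carbon monoxide. Its levels labelled 786-O were 228, 223 and 231 CPM in Cnsi cells and 143, 156 and 151 with IFNγ, against 451, 468 and 460 with PD-L1si and 284, 291 and 280.3 with both. The 4 groups did not overlap, with PD-L1si alone highest and IFNγ alone lowest. With PD-L1si HMOX1 rose by 1.02 ± 0.0447 in log2 fold change without IFNγ (adjusted p 3.02e-14, higher in 3 of 3 libraries, edgeR with Benjamini-Hochberg) and by 0.93 ± 0.0453 under IFNγ (adjusted p 2.69e-13, 3 of 3). It fell with IFNγ by 0.60 ± 0.0452 in Cnsi cells (adjusted p 3.26e-11, lower in 3 of 3 libraries) and by 0.69 ± 0.0444 in PD-L1si cells (adjusted p 1.57e-12, 3 of 3). The interaction was -0.09 ± 0.0631 (adjusted p 0.771), with a 95% interval from -0.21 to 0.04. PD-L1si replicate 1 of this line had 9.84% of its counts in mitochondrial genes, the highest share of the 12 libraries, which started at 4.72%, and the rise of HMOX1 kept its call with each library left out in turn.

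HMOX1 lay lower in the line labelled A498, at 37.0, 37.9 and 39.9 CPM in Cnsi cells, 22.9, 21.5 and 22.8 with IFNγ, 42.4, 43.6 and 39.95 with PD-L1si, and 30.4, 26.2 and 23.6 with both. The order of the groups differed from the other line, since Cnsi cells without IFNγ lay above PD-L1si cells with it. HMOX1 fell with IFNγ by 0.77 ± 0.0662 in Cnsi cells (adjusted p 1.33e-12, 3 of 3 libraries lower) and by 0.65 ± 0.0647 in PD-L1si cells (adjusted p 7.70e-11, 3 of 3), by edgeR with Benjamini-Hochberg. PD-L1si gave 0.26 ± 0.0707 under IFNγ (adjusted p 0.00366, 3 of 3 higher) and 0.13 ± 0.0604 without it (adjusted p 0.0959), both under the limit. IFNγ moved the constitutive heme oxygenase gene HMOX2 the other way, from 55.3 ± 0.485 to 121.6 ± 5.49 CPM (SD, n = 3) in Cnsi cells labelled A498, a log2 fold change of 1.14, and, labelled 786-O, from 102.2 ± 2.16 to 175.2 ± 5.61, which is 0.78. Per kb of exon HMOX1 over HMOX2 went from 1.01 ± 0.0474 to 0.270 ± 0.00751 with IFNγ in Cnsi cells labelled A498 and, labelled 786-O, from 3.26 ± 0.0171 to 1.25 ± 0.0447. With PD-L1si it was 1.11 ± 0.0412 and 0.357 ± 0.0447 labelled A498 and 5.95 ± 0.139 and 2.15 ± 0.0488 labelled 786-O, without and with IFNγ.

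CAT (ENSG00000121691, chr11:34438934-34472060, plus strand) encodes catalase, the peroxisomal enzyme that splits hydrogen peroxide. Its levels labelled A498 were 50.04, 52.0 and 50.6 CPM in Cnsi cells and 30.8, 32.4 and 29.5 with IFNγ, with 44.1, 43.6 and 41.7 for PD-L1si and 35.1, 33.1 and 32.02 for both. Cnsi cells were highest and the IFNγ groups lowest, overlapping each other. CAT fell with IFNγ by 0.72 ± 0.0524 in Cnsi cells (adjusted p 2.07e-14, lower in 3 of 3 libraries, edgeR with Benjamini-Hochberg), and in PD-L1si cells its log2 fold change was -0.37 ± 0.0532 (adjusted p 2.56e-07, 3 of 3), under the limit. The interaction was 0.35 ± 0.0749 (adjusted p 0.00150), also under the limit. PD-L1si without IFNγ gave -0.24 ± 0.0498 (adjusted p 0.000235, lower in 3 of 3 libraries), under the limit, and under IFNγ 0.11 ± 0.0559 (adjusted p 0.126). Labelled 786-O, CAT measured 299, 282 and 301 CPM in Cnsi cells, 223, 214 and 207 with IFNγ, 183, 213 and 183 with PD-L1si, and 164, 169 and 176 with both. The Cnsi libraries were again the highest, and those with both treatments the lowest. CAT fell with PD-L1si without IFNγ by 0.61 ± 0.0543 (adjusted p 1.36e-08, lower in 3 of 3 libraries, edgeR), while PD-L1si under IFNγ gave -0.34 ± 0.0547 (adjusted p 9.42e-05, 3 of 3) and IFNγ in Cnsi cells -0.45 ± 0.0542 (adjusted p 1.52e-07, 3 of 3). HMOX1 and CAT of this line thus had values of opposite sign with PD-L1si and of the same sign with IFNγ.

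SOD1 (ENSG00000142168, chr21:31659666-31668931, plus strand) encodes the copper and zinc superoxide dismutase and was measured in the libraries labelled A498. It stood at 184, 176 and 170.3 CPM in Cnsi cells, 136.6, 137.0 and 132.2 with IFNγ, 161.9, 162.7 and 162.8 with PD-L1si, and 125.8, 133.7 and 134.4 with both. The libraries with IFNγ were lower than those without, and the groups with and without PD-L1si overlapped under IFNγ. The log2 fold change with IFNγ was -0.38 ± 0.0412 in Cnsi cells (adjusted p 3.62e-10, 3 of 3 lower) and -0.31 ± 0.0416 in PD-L1si cells (adjusted p 5.90e-08, 3 of 3), under the limit in both. PD-L1si without IFNγ gave -0.12 ± 0.0407 (adjusted p 0.0222, 3 of 3 lower).

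SOD2 encodes the manganese superoxide dismutase of mitochondria. The row ENSG00000112096.18 carries the identifier that earlier annotation releases gave to SOD2, but the reference tables used here pair it with no symbol, and the match rests on background knowledge alone. The row was at 0 in all 12 libraries labelled 786-O and is taken as not measured there. Labelled A498 it held 989.4, 1029.7 and 1019 CPM in Cnsi cells, 1836, 2016 and 1905 with IFNγ, 281.4, 272.9 and 270.3 with PD-L1si, and 1011, 1239.7 and 1094 with both. PD-L1si libraries without IFNγ were far below the rest, and the cells given both treatments overlapped Cnsi cells. With PD-L1si the row fell by 1.88 ± 0.0518 in log2 fold change without IFNγ (adjusted p 1.44e-22, lower in 3 of 3 libraries, edgeR with Benjamini-Hochberg) and by 0.78 ± 0.0499 under it (adjusted p 7.94e-14, 3 of 3). With IFNγ it rose by 0.92 ± 0.04996 in Cnsi cells (adjusted p 1.64e-16, 3 of 3) and by 2.02 ± 0.0521 in PD-L1si cells (adjusted p 7.66e-25, 3 of 3), an interaction of 1.10 ± 0.0709 (adjusted p 5.33e-12). The row was not run under the alternative settings.

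The share of counts in mitochondrial genes also moved with IFNγ in the libraries labelled A498, from 3.63 to 4.46% in Cnsi cells to 1.45 to 2.05% with IFNγ, and its part in the values of these genes was not tested.

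The difference between the lines in the IFNγ response of Cnsi cells was tested in a model of all 24 libraries on 17999 genes, as the response labelled 786-O minus that labelled A498. Of the 7 genes, 3 were past the threshold downward and 0 upward by edgeR (13.2% and 15.1% of all genes), with 6 of 7 at an unadjusted p under 0.05 and 3 past the threshold by DESeq2. The percentages belong to the threshold, and the 6 of 7 has no share of all genes beside it. TXNRD1 responded less in the line labelled 786-O by -1.20 ± 0.0671 (adjusted p 2.55e-18), GCLM by -1.08 ± 0.0989 (adjusted p 2.34e-10) and NFE2L2 by -0.51 ± 0.0603 (adjusted p 3.48e-09), each with 3 of 3 IFNγ libraries higher than Cnsi in both lines except TXNRD1 labelled 786-O. The NFE2L2 difference lay at the limit and went under it without A498 Cnsi replicate 3 (-0.498), A498 Cnsi IFNγ replicate 2 (-0.476), 786-O Cnsi replicate 3 (-0.483) or 786-O Cnsi IFNγ replicate 1 (-0.480). For HMOX1 the difference was 0.16 ± 0.0793 (adjusted p 0.0870) with a 95% interval from 0.01 to 0.32. For GCLC it was -0.05 ± 0.0867 (adjusted p 0.703).

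For the effect of PD-L1si, the same model gave 1 of 7 genes upward and 0 downward without IFNγ (3.23% and 1.25% of all genes) and 1 upward and 0 downward under IFNγ (2.96% and 2.64%) by edgeR, with 3 of 7 at an unadjusted p under 0.05 and 1 by DESeq2 in each. That gene was HMOX1 both times, with differences of 0.89 ± 0.0751 (adjusted p 8.10e-12) and 0.68 ± 0.0821 (adjusted p 6.69e-08), and PD-L1si libraries were higher in 3 of 3 in each line and state. CAT went the other way, by -0.36 ± 0.0750 without IFNγ (adjusted p 0.000594) and -0.44 ± 0.0798 under it (adjusted p 8.07e-05), under the limit, with PD-L1si libraries lower in 3 of 3 in both states labelled 786-O and, labelled A498, in 3 of 3 without IFNγ.

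Without IFNγ the lines differed widely in the level of these genes, which was described and not tested because line and instrument cannot be told apart. After scaling all libraries on the shared genes and adding 1 to each mean CPM, 6 of the 7 genes were over 2-fold higher in Cnsi libraries labelled 786-O and 0 over 2-fold higher in those labelled A498, where 9.39% and 8.25% of all 17999 genes were. NQO1 stood at 82.4 ± 4.46 CPM (SD, n = 3) labelled A498 and 1130.5 ± 38.7 labelled 786-O, a ratio of 13.7. A gene on the other strand that overlaps its exons, ENSG00000261602, held a mean of 257 counts labelled A498 and 3463.5 labelled 786-O, beside 1992 and 32578 for NQO1, and its part in the ratio was not tested. The ratio was 7.18 for GCLM, 5.09 for HMOX1, 4.95 for CAT, 4.91 for TXNRD1 and 3.15 for GCLC. NFE2L2 itself stood at a ratio of 1.03, at 189.7 ± 2.53 and 194.7 ± 5.40 CPM, with overlapping libraries. The 5 NRF2 targets measured in both lines were thus higher labelled 786-O at a like level of the NFE2L2 transcript, while SRXN1 was not measured there, and neither was the protein. The median log2 ratio was 2.29 over the 7 genes and -0.01 over all genes. Per kb of exon, SOD1 was the highest of the 9 genes in Cnsi libraries labelled A498 at 89.4 CPM per kb, followed by TXNRD1 at 50.9 and NQO1 at 23.8, down to SRXN1 at 0.378. In those labelled 786-O, NQO1 led the 7 genes at 381 CPM per kb, ahead of TXNRD1 at 291 and HMOX1 at 98.6, down to GCLC at 9.58.

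**Figure D4:**
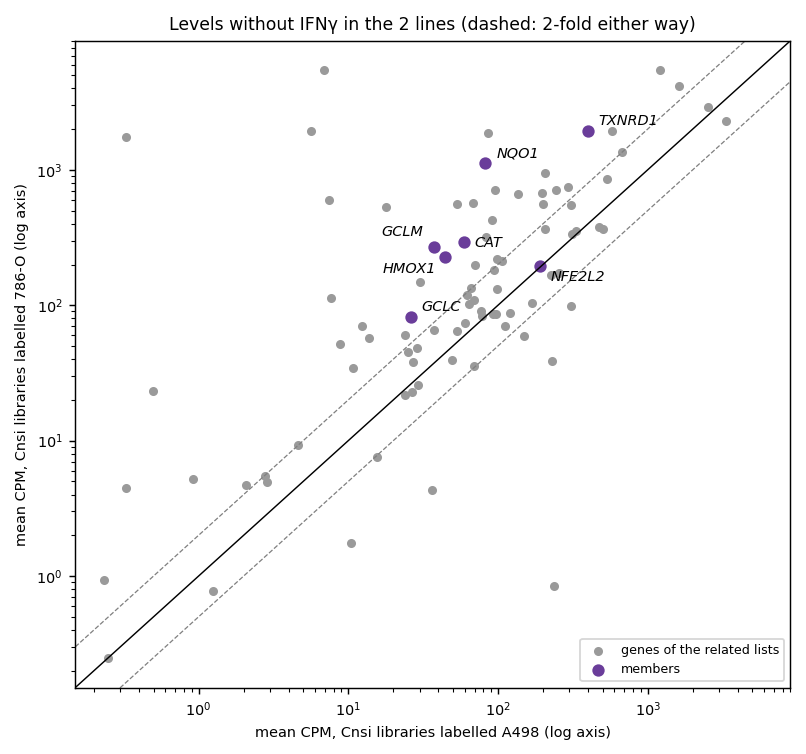
Mean CPM of Cnsi libraries labelled A498 against those labelled 786-O, both log axes, for the 7 genes measured in both lines and 83 genes of related lists, with a solid line for equal levels and dashed lines for 2-fold either way. Of the 7, NFE2L2 alone lies between the dashed lines.

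Genes around the pathway were read from 7 lists of 111 genes, of which 100 were tested labelled A498, 91 labelled 786-O and 83 in both lines. With IFNγ in Cnsi cells, 25 rose and 27 fell labelled A498, which is 25% and 27% beside 18.2% and 18.5% of all genes, and 18 rose and 6 fell labelled 786-O, which is 19.8% and 6.59% beside 11.1% and 7.39%. With PD-L1si under IFNγ 6 rose and 8 fell labelled A498, which is 6% and 8% beside 4.36% and 5.75% of all genes, and 2 rose and 4 fell labelled 786-O, which is 2.2% and 4.4% beside 1.29% and 1.74%. The counts of single lists below are to be read against these shares of all genes, and several lie near them. In Cnsi libraries, with 1 added to each mean CPM as above, 33 of the 83 were over 2-fold higher labelled 786-O and 6 over 2-fold higher labelled A498, among them 0 and 0 of the 10 NRF2 regulators.

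Of the NRF2 regulators, 6 of 11 rose with IFNγ and 0 fell labelled A498, with a median log2 fold change of 0.83, and 3 of 10 up and 0 down labelled 786-O, with a median of 0.24. BACH1, the repressor that competes with NRF2 and is known to hold down HMOX1, rose from 66.7 ± 1.46 to 316 ± 6.38 CPM (SD, n = 3), a log2 fold change of 2.24, labelled A498, and from 82.8 ± 2.01 to 147 ± 20.2, which is 0.83, labelled 786-O. MAFF, a small MAF partner, rose by 3.26 and 1.29. NFE2L2 and its competitor BACH1 rose labelled A498, where HMOX1 fell and GCLM and TXNRD1 rose. Any link between these changes was not tested. With PD-L1si under IFNγ 0 of the 11 rose and 3 fell labelled A498 (4.36% and 5.75% of all genes), MAFG by 0.71 and MAFF by 0.66 among them, and 0 of 10 passed either way labelled 786-O. KEAP1, named here after its values were seen, had IFNγ log2 fold changes of 0.04 labelled A498 and 0.19 labelled 786-O.

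Around GCLM and GCLC, the glutathione list had 5 of 22 up and 8 down with IFNγ labelled A498, and 4 of 20 up and 3 down labelled 786-O. The glutathione transferase gene GSTK1 rose by 1.63 and 1.44, CHAC1, whose enzyme degrades glutathione, rose by 1.37 and 1.19, GSTA4, at under 5 CPM in Cnsi cells, fell by 2.33 and 0.78, and MGST2 fell by 1.69 labelled A498. SLC7A11, which encodes the cystine importer that feeds glutathione synthesis, went labelled 786-O from 213 ± 2.58 to 119.8 ± 6.23 CPM with IFNγ (-0.83) and to 51.4 ± 1.83 with PD-L1si as well (-1.22), and labelled A498 these values were -0.21 and -0.50, under the limit. Without IFNγ it fell with PD-L1si in both lines, by 0.85 labelled A498 and 1.16 labelled 786-O. SLC7A11 and HMOX1, both counted as NRF2 targets, therefore moved in opposite directions with PD-L1si labelled 786-O, while labelled A498 HMOX1 was under the limit.

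Around TXNRD1 and SRXN1, the thioredoxin and peroxiredoxin list had 5 of 18 up and 5 down with IFNγ labelled A498 and 3 of 16 up and 1 down labelled 786-O. The methionine sulfoxide reductase gene MSRB1 rose by 1.59 and 0.98, while the peroxiredoxin genes PRDX1 and PRDX2 fell by 0.95 and 0.83 labelled A498. Of the genes that supply NADPH to these enzymes, 2 of 11 rose and 2 fell labelled A498, near the shares of all genes, and 2 of 7 rose and 0 fell labelled 786-O. MTHFD2 rose by 1.35 and 1.28, and IDH2 fell by 1.36 labelled A498.

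Around NQO1, the list for quinone, carbonyl and drug detoxification had 3 of 21 up and 8 down with IFNγ labelled A498 and 2 of 20 up and 2 down labelled 786-O. OSGIN1 rose by 1.99 and the aldo-keto reductase gene AKR1C3 fell by 3.13 labelled A498, and PD-L1si under IFNγ moved AKR1C3 back up by 1.44 there. The drug exporter gene ABCC1 fell with PD-L1si under IFNγ in both lines, by 1.17 and 0.73. Textbook targets of NRF2 thus went both ways within a line.

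Around HMOX1, the heme and iron list had 3 of 11 up and 3 down with IFNγ labelled A498 and 2 of 9 up and 0 down labelled 786-O. BLVRA, whose enzyme takes up the biliverdin that heme oxygenase makes, rose by 0.97 labelled 786-O beside 0.46, under the limit, labelled A498, and the transferrin receptor gene TFRC fell by 0.92 labelled A498. The heme transporter gene SLC48A1 rose with PD-L1si under IFNγ by 0.65 labelled A498 and 0.63 labelled 786-O, beside the rise of HMOX1 in the latter. Among sources of superoxide and peroxide, 1 of 6 rose and 1 fell labelled A498, where the extracellular dismutase gene SOD3 fell by 1.01, and 2 of 9 rose and 0 fell labelled 786-O, where XDH, for xanthine dehydrogenase, went from 0.0804 ± 0.0562 to 3.45 ± 0.473 CPM.

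**Figure D5:**
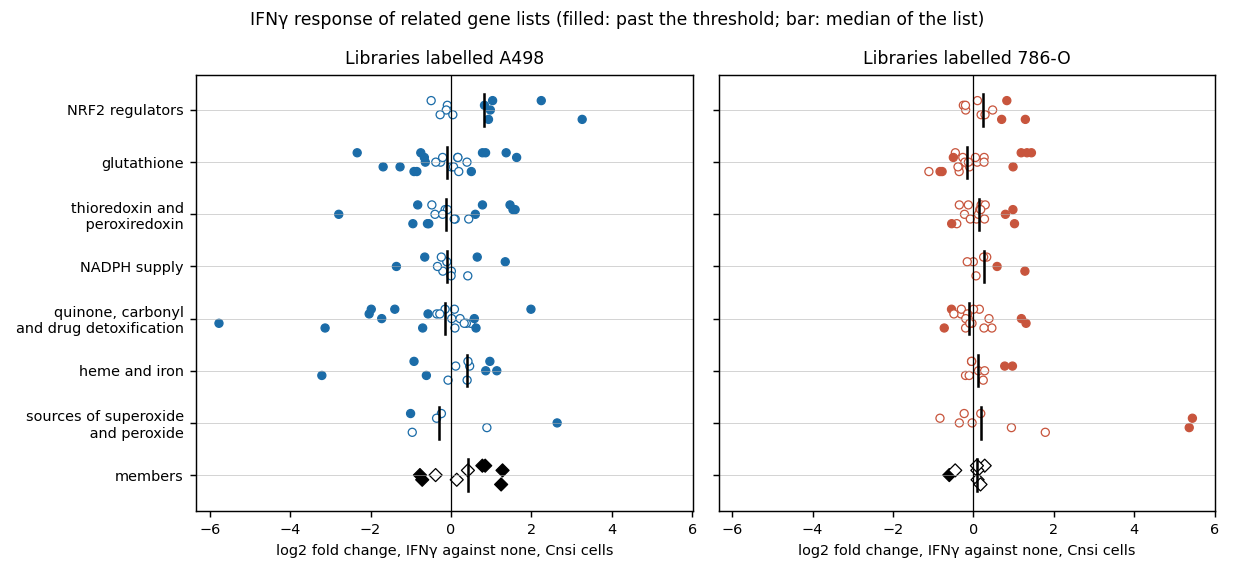
Log2 fold change with IFNγ in Cnsi cells for the genes of 7 related lists and for the 9 and 7 genes described here (diamonds), by labelled line, with filled symbols past the threshold and bars at the median of each list. The NRF2 regulators have the highest median labelled A498, at 0.83.

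GBP1, a gene known to answer IFNγ, rose with it by 6.59 labelled A498 and 4.97 labelled 786-O. Of the NF-kB genes, 4 of 6 labelled A498 and 3 of 4 labelled 786-O rose with IFNγ in Cnsi cells (18.2% and 11.1% of all genes). With PD-L1si under IFNγ 4 of 6 fell labelled A498 and 0 of 4 passed labelled 786-O (5.75% and 1.74% of all genes fell). Without IFNγ 5 of 6 fell with PD-L1si labelled A498 and 0 of 4 passed labelled 786-O (5.6% and 1.63% of all genes fell).

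The genes whose levels followed these most closely are given as a description, by Pearson's r of log2 (CPM + 1) over the 12 libraries of a line, which share their 4 groups. For TXNRD1 labelled A498 they were CALCOCO2 (0.999), CCDC68 (0.998) and OR2A9P (0.998) of 14964 genes. For HMOX1 labelled 786-O they were PGAP3 (0.980), EFEMP1 (0.977) and DLC1 (0.975) of 14171 genes.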

How the data were processed

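Whole-cell polyadenylated RNA was sequenced in 24 libraries. By the submitters' processing notes, reads were converted with bcl2fastq 2.19.0, trimmed with Trimmomatic 0.36.6, aligned to GRCh38 with HISAT2 2.1.0 and counted with featureCounts 1.6.3. The table deposited by the authors holds raw counts of 39321 genes, and 0 of its columns had no sample. Groups came from the sample labels. Totals of 19256316 to 30350461 counts per library set the precision given by each standard error.

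The models were run under R 4.3.3 in edgeR 4.0.16 (TMM, robust quasi-likelihood fit, legacy form), with 1 model of 12 libraries per line, on genes with at least 10 counts over the 3 libraries of a group, and with Benjamini-Hochberg adjustment over all genes tested. Positions came from GENCODE release 44, a later release than the one the study counted with. A gene was past the threshold at an adjusted p under 0.05 and a log2 fold change over 0.5 either way, and only such genes are said to rise or fall. Lines were compared in 1 model of 24 libraries. The steps were tested on simulated data. Alternatives were RLE scaling, DESeq2 1.42.0, no filter, edgeR's filterByExpr, protein-coding genes alone, other limits, the compared groups alone, a replicate block and leaving out each library.

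Genes named from the related lists were picked from the up to 2 largest rises and 2 largest falls past the threshold in a list, line and comparison, with a mean of at least 1 CPM, and many of these are not named. The genes and lists were chosen with earlier results of these data known. The line differences in the PD-L1si effect were added after the data were seen. The row with the earlier identifier of SOD2 was kept out of the counts.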

Additional observations from a re-analysis of the deposited data

Results flagged for a closer look

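Several genes responded differently in the line labelled 786-O than in that labelled A498, by edgeR's test of the difference with Benjamini-Hochberg adjustment (786-O minus A498). For the IFNγ response of Cnsi cells the difference was -1.20 for TXNRD1, -1.08 for GCLM, -0.51 for NFE2L2, -0.33 for NQO1 and 0.26 for CAT. For NQO1 (adjusted p 0.000208) and CAT (adjusted p 0.00564) it was under the 0.5 limit, with IFNγ libraries of CAT lower in 3 of 3 in both lines. For the effect of PD-L1si without IFNγ it was 0.89 for HMOX1 and -0.36 for CAT. Under IFNγ it was 0.68 for HMOX1, -0.44 for CAT and -0.38 for GCLC (adjusted p 0.00148), and in these comparisons the values of CAT and GCLC were under the limit. Within the libraries labelled A498, the IFNγ response of CAT differed between PD-L1si and Cnsi cells by 0.35, under the limit as well.

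Of the rows that the annotation gives no symbol, only those with the most counts labelled A498 were read, and they stand for no wider class. With IFNγ in Cnsi cells labelled A498 these rows rose, as did 18.2% of all genes. In Cnsi cells labelled A498, ENSG00000269926.1 rose by 0.75 (adjusted p 2.45e-19), from 934.9, 952.9 and 948.3 CPM to 1581, 1586 and 1600.2. ENSG00000112096.18 rose by 0.92 (adjusted p 1.64e-16), higher in 3 of 3 libraries like the former, and its identifier is that of SOD2 in earlier annotation releases.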

How the results depend on the processing

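Of 101 gene values, 22 were past the threshold. Over the other normalizations, tools, filters, gene sets and left-out libraries 19 of these kept their call and 3 lost it somewhere (SRXN1 with IFNγ in both siRNA states, and the NFE2L2 line difference), 0 of the 79 others gained it, and 0 changed sign while past the threshold. Values near 0 could change sign below it, such as the SRXN1 interaction (-0.11, from -0.32 to 0.24 with a library left out). With a log2 fold change over 1, the counts labelled A498 were 2 for IFNγ in Cnsi cells and 2 in PD-L1si cells. Labelled 786-O they were 0 and 0 for IFNγ in these cells and 0 under IFNγ and 1 without it for PD-L1si, and the line differences were 2 for IFNγ and 0 and 0 for PD-L1si. With the adjusted p alone, IFNγ labelled A498 gave 8 in Cnsi and 9 in PD-L1si cells, PD-L1si 5 under IFNγ and 3 without it and the interaction 1. Labelled 786-O gave 4 and 7 for IFNγ in Cnsi and PD-L1si cells and 2 and 4 for PD-L1si under and without IFNγ, and the line differences gave 5 for IFNγ and 2 and 3 for PD-L1si without and under it. No share of all genes stands beside the counts at a log2 fold change over 1 or at the adjusted p alone. DESeq2 gave 5 for IFNγ in PD-L1si cells labelled A498. Leaving out a library gave 5 to 6 for IFNγ labelled A498 in either siRNA state and 2 to 3 for the line difference in the IFNγ response, and the other counts did not move. With a replicate block the counts were 6, 6, 0, 0 and 0 labelled A498, 1, 1, 1, 2 and 0 labelled 786-O, and 3, 1 and 1 for the line differences. Replicates of the same number were treated as unpaired. Their mean correlation of residuals was 0.0499 labelled A498 and 0.0280 labelled 786-O, over 0.1 in 3 of 18 and 5 of 18 pairs. Of 12 libraries per line, 7 labelled A498 and 4 labelled 786-O correlated best with their own number, so these values do not exclude a pairing. Depth limits SRXN1, at 337 counts in 12 libraries.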

Other observations

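The row ENSG00000269926.1, which has no symbol and was measured in both lines, had an IFNγ log2 fold change in Cnsi cells of -0.15 ± 0.0454 (adjusted p 0.00855, edgeR with Benjamini-Hochberg) labelled 786-O. Its libraries there measured 264.1, 264.2 and 278.1 CPM without IFNγ and 250.8, 245.1 and 229.2 with it, lower in 3 of 3.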
